A study of Homo sapiens with 51 samples.

Results

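Chromatin regions that became accessible late, between day 3 and day 5 of BMP4 treatment, were followed in H1 cells, an established human embryonic stem cell line. ATAC-seq reads out accessibility: a transposase cuts DNA that nucleosomes leave bare and tags it for sequencing, so that reads gather there. The regions were chosen by their measured levels in unedited (WT) cells, in CPM, the count in a region scaled to the total of its library. A region was kept where the mean of the 2 WT libraries reached at least 4 CPM at day 5 and at least 1.8 times its mean at each of days 1, 2 and 3. This held for 4549 of the 142087 regions of the BMP4 table, or 3.202%.

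Those groups comprised WT cells, a line labelled KO and a line labelled DATG (ΔATG), each sampled on days 1, 2, 3, 4 and 5 of BMP4 with 2 libraries, lettered a and b, per line and day. The edited gene and the number of clones behind each line are not in the labels. Nor is the origin of the replicates, so the p-values cover the spread between libraries alone, which may be technical. The BMP4 cells, which the labels call mesoderm, make up 30 of the 51 libraries analysed here, and the others are undifferentiated cells at day 0 and cells under a treatment labelled SMADi. Total counts of the BMP4 libraries ran from 4019778, in DATG day 5 replicate b, to 13850448, in WT day 3 replicate a.

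BMP4 is a secreted growth factor that acts through receptor kinases and SMAD transcription factors, and it drives pluripotent cells toward mesoderm and related lineages. Opening of a region usually goes with binding of transcription factors there. In distal regions these are mostly enhancers, and factors of the GATA, AP-1 and TEAD families are known to bind many of them in mesodermal and epithelial cells.

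Most of the late-opening regions lay away from gene starts. Leaving out chromosome 8, for which no gene starts were used, 3.82% of 4297 late-opening regions lay within 1 kb of an annotated gene start, against 26.9% of 136085 regions of the whole table. The median distance was 29743 bp against 10961 bp. In all, 46.7% lay inside a protein-coding gene, against 54.6% of all regions.

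Sequences from RefSeq were at hand for gene-start windows, 250 bases before to 50 after a start, and 27 late-opening regions lay whole inside one. Exact matches on either strand to 19 short motifs were counted in them and in all 6811 regions of the table that lay whole inside such a window. The AP-1 motif TGANTCA occurred in 44.4% of the 27 against 3.05% of the 6811, GATAA, the core of GATA sites, in 33.3% against 6.4%, and the TEAD motif GGAATG in 18.5% against 6.77%. GTCTGG, a SMAD motif, occurred in 33.3% against 12.3%. The KLF/SP motif GGGCGG went the other way, with 14.8% against 68.1%, as did the TFAP2 motif GCCNNNGGC with 3.7% against 26.3% and the ETS motif GGAAGT with 3.7% against 18.6%. The late-opening regions were also poorer in G and C, with a median of 57.7% against 68.7%, so base composition moved with these shares and its part in them was not tested. Among the 61 with at least 101 bases in a window, AP-1 stood at 31.1% against 2.87%, GATA at 37.7% against 5.61% and KLF/SP at 14.8% against 62.2%. Motifs of different names can overlap, a match is not a binding site, and gene-start regions are a small and unusual share of the set.

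The following sequences show such matches and, in the last line, a region with none of the 3 motifs. Each is the piece of a late-opening region that lies before the gene start, on the gene's strand, 5′ to 3′, from RefSeq on GRCh38.p14, and each ends at the base next to the start. Capitals mark TGANTCA (AP-1), GATAA (GATA) and GGAATG (TEAD) on either strand. MBNL2 (chr13:97141671-97141833, plus strand) encodes a splicing regulator. VTN (chr17:28370308-28370481, minus strand) encodes the adhesion protein vitronectin. FILIP1 (chr6:75493801-75493981, minus strand) encodes a filamin-binding protein. TNNT2 (chr1:201377681-201377792, minus strand) encodes cardiac troponin T. LAMB3 (chr1:209651375-209651537, minus strand) encodes a laminin chain. ECM1 (chr1:150507910-150508108, plus strand) encodes an extracellular matrix protein. IP6K3 (chr6:33746906-33747074, minus strand) encodes an inositol phosphate kinase.
MBNL2: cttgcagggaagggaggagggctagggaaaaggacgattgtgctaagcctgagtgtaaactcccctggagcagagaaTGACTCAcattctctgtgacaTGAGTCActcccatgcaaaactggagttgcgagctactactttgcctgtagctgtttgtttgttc
VTN: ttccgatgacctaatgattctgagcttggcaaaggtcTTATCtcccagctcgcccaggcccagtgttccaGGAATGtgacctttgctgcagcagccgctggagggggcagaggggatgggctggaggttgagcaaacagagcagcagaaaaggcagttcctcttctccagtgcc
FILIP1: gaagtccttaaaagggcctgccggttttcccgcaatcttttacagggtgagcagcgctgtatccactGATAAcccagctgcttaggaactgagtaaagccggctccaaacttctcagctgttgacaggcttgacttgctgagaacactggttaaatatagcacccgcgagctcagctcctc
TNNT2: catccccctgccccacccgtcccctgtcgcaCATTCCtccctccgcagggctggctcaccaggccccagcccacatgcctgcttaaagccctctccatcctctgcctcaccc
LAMB3: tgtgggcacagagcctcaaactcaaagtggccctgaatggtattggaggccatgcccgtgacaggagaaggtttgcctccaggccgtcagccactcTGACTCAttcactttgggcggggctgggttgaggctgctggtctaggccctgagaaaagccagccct
ECM1: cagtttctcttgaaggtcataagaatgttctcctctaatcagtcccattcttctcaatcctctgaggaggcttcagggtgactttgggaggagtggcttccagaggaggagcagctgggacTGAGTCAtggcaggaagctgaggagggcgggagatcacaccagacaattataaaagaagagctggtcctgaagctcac
IP6K3: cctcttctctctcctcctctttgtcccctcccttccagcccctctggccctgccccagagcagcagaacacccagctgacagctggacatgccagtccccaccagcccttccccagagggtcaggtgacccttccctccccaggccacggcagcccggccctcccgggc

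MBNL2 has 2 AP-1 matches, LAMB3 and ECM1 have 1 each, VTN has 1 GATA and 1 TEAD match, FILIP1 has 1 GATA match and TNNT2 has 1 TEAD match. At ECM1, WT libraries a and b read 0.469 and 0.893 CPM at day 1 and 4.37 and 4.26 CPM at day 5, while KO reached 1.52 and 1.3 CPM and DATG 1.38 and 0.746 CPM. The rise from days 1 to 3 did not pass the test described below in either line (adjusted p = 0.0902 in KO and 0.422 in DATG, edgeR). At FILIP1, where WT went from 1.78 and 2.57 to 6.55 and 8.85 CPM, both lines rose, by 1.00 ± 0.27 in KO and 1.02 ± 0.27 in DATG on the log2 scale (SE, n = 2 libraries per day, adjusted p = 0.00676 and 0.00557).

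**Figure D1:**
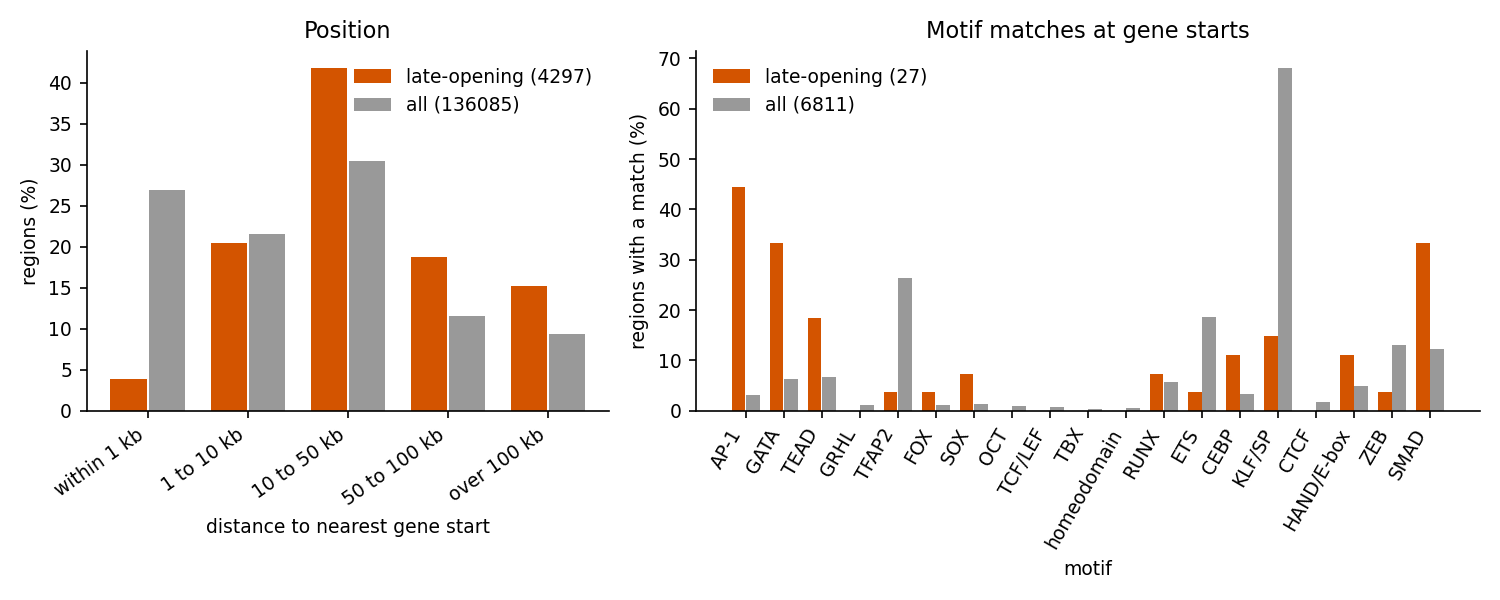
Left, share of late-opening regions (orange) and of all regions (grey) by distance to the nearest gene start. Right, share of regions lying whole in a gene-start window that hold each motif. The late-opening regions stand at 3.82% within 1 kb against 26.9% of all, and AP-1, GATA and KLF/SP show the widest gaps in the motif panel.

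In WT cells the late-opening regions went from a median of 1.25 CPM at day 1 through 1.62, 2.38 and 3.40 to 6.06 CPM at day 5 (median over regions of the mean of 2 libraries). These WT values of days 1, 2, 3 and 5 chose the regions, so they are a description. The median fold of day 5 over the highest of days 1 to 3 was 2.38, with quartiles of 2.04 and 3.01. Day 4, which the rule did not use, lay early on the way from the highest of days 1 to 3 to day 5. The median region had made 24.8% of that rise by then, 795 regions were already at 1.8 times the highest earlier day, and 608 were at or below it. Both ends of that rise were used by the rule. The rule was met in replicate a alone by 3063 of the 4549 regions, in replicate b alone by 4078 and in neither alone by 78. Just inside the fold limit stood regions at 1.8001 and 1.8002 times, just outside it 1.7995 and 1.7993, and the CPM limit separated regions at 4.005 from regions at 3.986 CPM.

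The KO and DATG lines started near the WT level and fell behind it. At day 1 the medians were 1.22 CPM in KO and 1.19 CPM in DATG. KO then read 1.03, 1.37, 1.94 and 2.44 CPM on days 2, 3, 4 and 5, and DATG 1.45, 1.88, 2.33 and 3.62 CPM. Region by region, the median KO level was 96.9% of WT at day 1, 65.9% at day 2, 56.2% at days 3 and 4 and 38.3% at day 5. The DATG level went from 95.5% through 89.3%, 76.8% and 67.1% to 58.0%. These ratios share the WT libraries that chose the regions, except at day 4, and carry no test. At day 5, 98.6% of the regions had a KO mean below the WT mean and 98.1% a DATG mean below it. WT day 5 was used in the choice, so a gap to it at any single region is a description. How much the choice adds to these gaps was not tested. In bulk cells, fewer cells with an open region and less opening per cell cannot be told apart.

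Single libraries kept the order WT, DATG, KO on days 3, 4 and 5. The share of all counts that fell in the late-opening regions at day 5 was 3.08% and 3.40% in WT, 2.09% and 1.78% in DATG, and 1.23% and 1.45% in KO, with no overlap between the 2 mutant lines. At day 1 the 6 libraries lay between 0.688% and 0.744%. At day 2, WT (0.814% and 0.946%) and DATG (0.828% and 0.771%) overlapped, and KO stood at 0.565% and 0.646%. At day 4, WT stood at 1.99% and 1.68%, DATG at 1.27% and 1.25%, and KO at 1.08% and 1.04%. The median over all regions of the table lay between 4.39 and 4.73 CPM in the 12 libraries of days 4 and 5.

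**Figure D2:**
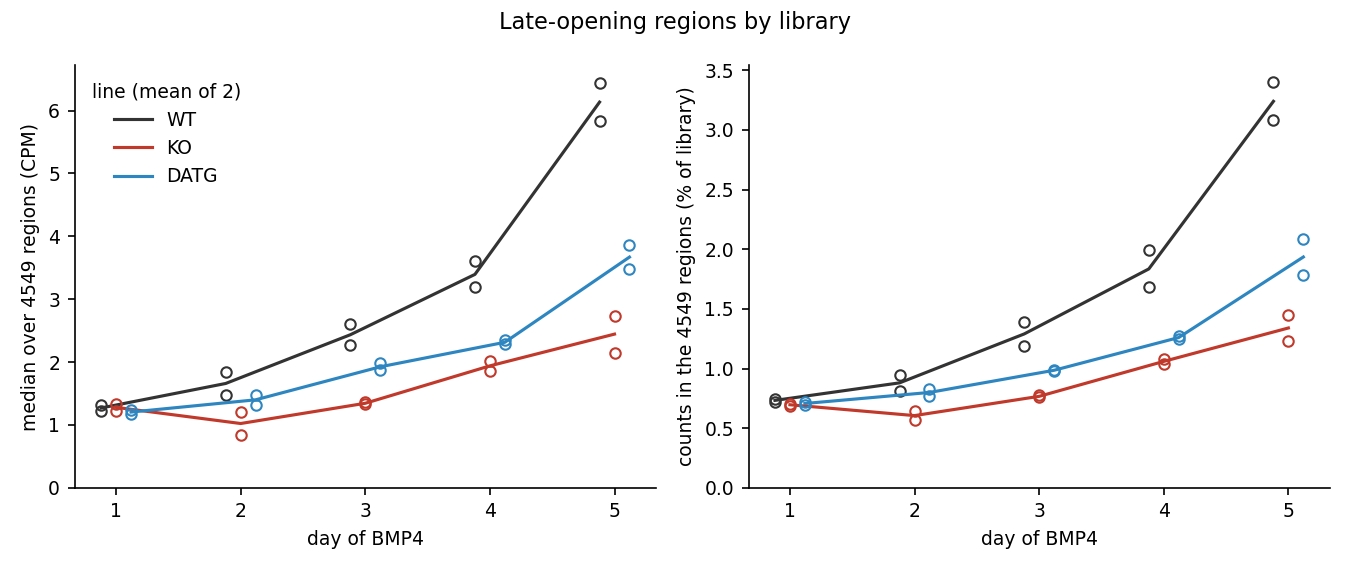
Median CPM of the 4549 late-opening regions (left) and their share of library counts (right) by day of BMP4. Circles are single libraries and lines join the mean of the 2 libraries of each line. The 3 lines coincide at day 1 and at day 5 lie apart in the order WT, DATG, KO.

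Whether the mutant lines opened these regions at all can be tested, since their libraries took no part in the choice. Day 5 was set against the mean of days 1, 2 and 3 within each line by edgeR's quasi-likelihood F test over all 142083 regions that passed a filter on low counts, all 4549 late-opening regions among them. A region was called at a Benjamini-Hochberg adjusted p under 0.05, and log2 fold changes are given with a standard error (SE). In KO, 2512 of the 4549 regions rose and 1 fell, against a background of 7.15% higher and 2.58% lower over all regions. The median log2 change was 1.06, and −0.01 over all regions. In DATG, 3635 rose and 0 fell, against 8.72% higher and 2.8% lower, with a median of 1.39. Both lines rose at 2302 regions, KO and not DATG at 210, DATG and not KO at 1333, and neither was called at 704. The counts in both lines rest on 1 library in part, and DESeq2's Wald test called 2864 in DATG. Without KO day 5 replicate b 1110 regions rose, and without DATG day 5 replicate a 1501 rose in DATG, while DESeq2's Wald test called 1589 in KO.

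The 704 regions called in neither line were low in both, though low levels were not particular to them. Their median at day 5 was 2.12 CPM in KO and 2.64 CPM in DATG against 5.08 CPM in WT, and the median KO count behind this was 16.5 reads. Regions called in both lines had medians of 2.86, 4.28 and 6.99 CPM in the same order. Those called in DATG and not KO had 1.98, 3.45 and 5.64 CPM, with 15.5 KO reads. Those called in KO and not DATG had 2.60, 2.46 and 5.08 CPM. In WT at day 1 the 704 had the highest median, 1.77 CPM against 1.05 (both), 1.32 (DATG) and 1.39 CPM (KO).

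The rise was smaller in KO than in DATG at 3429 of 4549 regions, or 75.4%, against 50.7% of all regions. For single regions this difference did not pass: the test of the KO change minus the DATG change called 0 of the 4549 and 0 regions of the table, a background of 0.0% in each direction, with 542 late-opening regions (11.9%) at an unadjusted p under 0.05, against 6.31% of all regions, and a median difference of −0.33. No other tool was run on it.

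**Figure D3:**
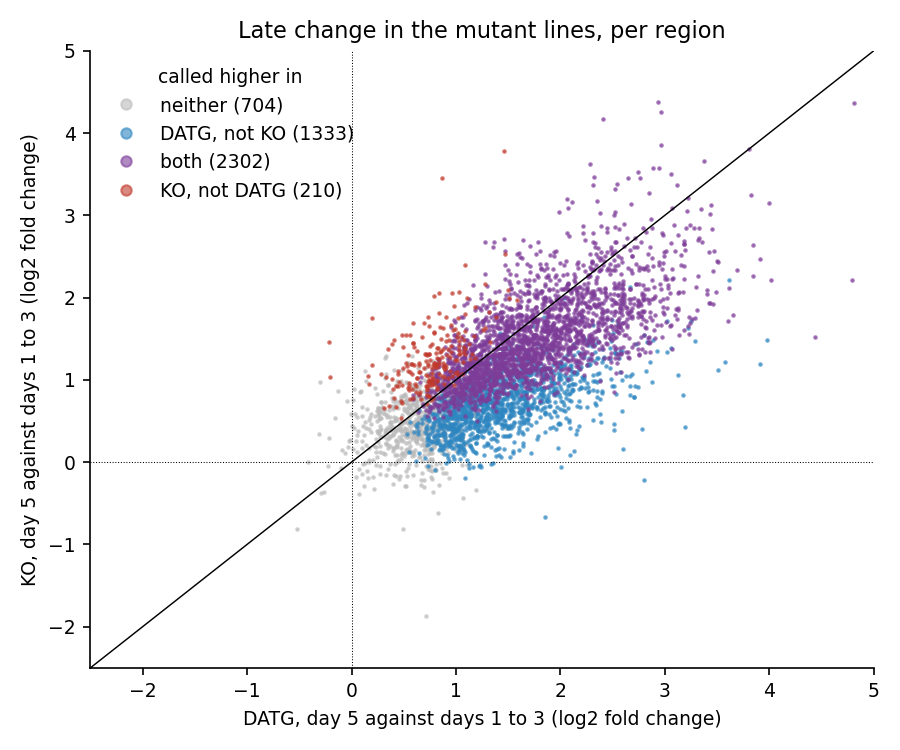
Log2 change from days 1 to 3 to day 5 at each of the 4549 late-opening regions, DATG on the x axis and KO on the y axis, coloured by the line in which the region was called higher. The solid line marks equal change, and 3429 regions lie under it.

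At day 4, which did not enter the choice in any line, KO was below WT at most of these regions. Of the 4549, 1458 were lower in KO and 4 higher, against 3.74% lower and 1.14% higher over all regions, and 94.0% had a log2 difference under 0, against 49.8% of all regions. The median was −0.86. For DATG against WT, 273 were lower and 0 higher, against 0.557% lower and 0.138% higher, with a median of −0.61. These counts move with single libraries and with the tool, although the medians move less. Without WT day 4 replicate a, 383 were lower in KO (median −0.70) and 3 in DATG (median −0.46). Without KO day 4 replicate a or b, 809 and 651 were lower in KO, and without DATG day 4 replicate b 3 were lower in DATG. DESeq2 called 348 lower in KO and 0 in DATG, where edgeR without adjustment had 2055 late-opening regions (45.2%) at a p under 0.05, against 11.3% of all regions.

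KO and DATG were also set against each other at day 5, a contrast that holds no WT library. KO was lower at 241 regions and higher at 0, against 0.355% lower and 0.136% higher over all regions. The median was −0.62, and 92.0% of the late-opening regions lay under 0, against 51.0% of all regions. The count fell to 20 without KO day 5 replicate a, to 13 without DATG day 5 replicate a, and to 1 with DESeq2, where the medians were −0.49, −0.42 and −0.60. The direction over the set thus held in each of these fits while calls on single regions did not.

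**Figure D4:**
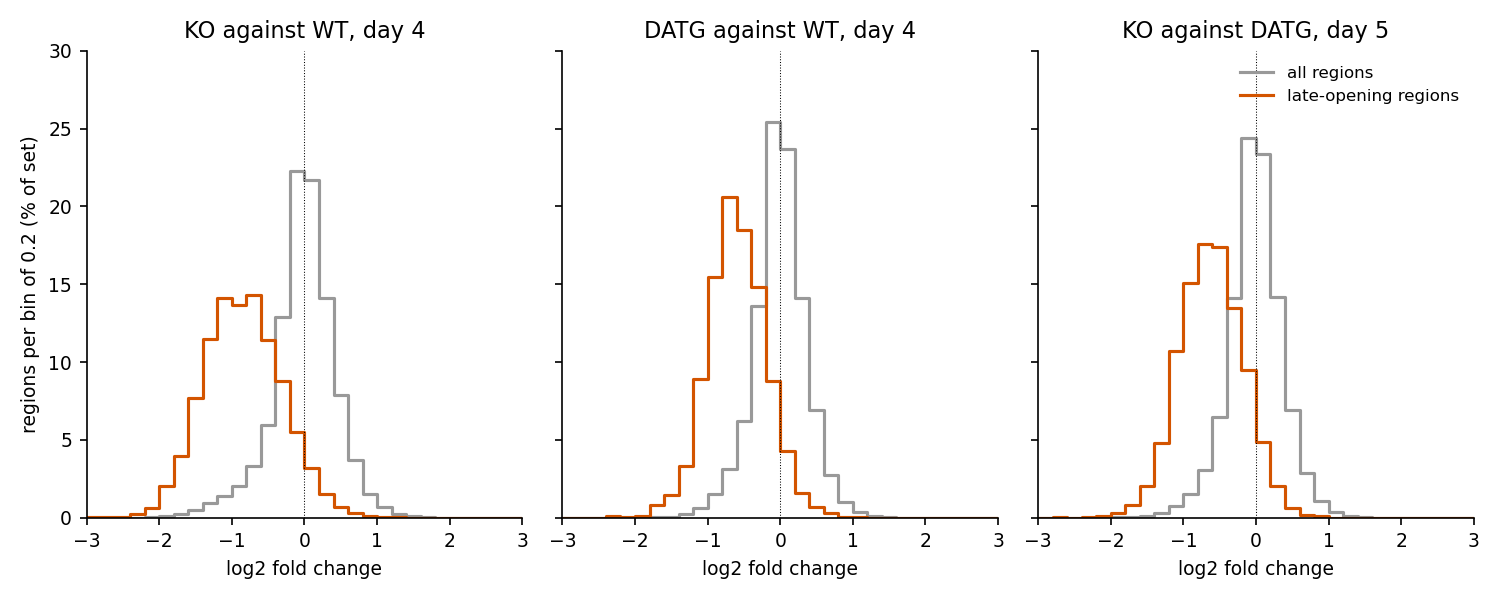
Distribution of log2 fold changes over the 4549 late-opening regions (orange) and over all tested regions (grey) for KO against WT and DATG against WT at day 4 and KO against DATG at day 5, in bins of 0.2. The orange curves are centred at −0.86, −0.61 and −0.62, and the grey curves near 0.

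The mutant lines at day 5 were compared with WT a day earlier, a comparison added after the values were seen. KO at day 5 was below WT at day 4 at 887 regions and above it at 61, against 4.0% lower and 4.57% higher over all regions, with a median of −0.52. The lower count was 261 without WT day 4 replicate a, 240 without KO day 5 replicate a and 211 with DESeq2. For DATG, 13 were lower and 63 higher, against 0.826% and 1.45% over all regions, with a median of 0.10. That median turned to −0.02 without WT day 4 replicate b and to −0.09 without DATG day 5 replicate a. Mean levels alone put KO at day 5 below WT at day 4 in 80.2% of regions and below WT at day 3 in 46.7%, and DATG in 42.4% and 10.3%.

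The regions were chosen for a rise in WT alone, so the same rule was also applied, as an addition made after the values were seen, to each mutant line. Out of 142087 regions it kept 1693 in KO and 1972 in DATG, and the overlaps are to be read against these shares of the whole. Of the 4549 WT regions, 277 (6.09%) were also chosen in KO, which is 16.4% of the KO regions, and 1097 (24.1%) in DATG, which is 55.6% of the DATG regions. At the KO-chosen regions the day 4 difference between KO and WT had a median of 0.28. Of them 117 were higher and 177 lower, against 1.14% higher and 3.74% lower over all regions. At the DATG-chosen regions DATG was below WT at day 4, with a median of −0.46. Of them 8 were higher and 183 lower, against 0.138% higher and 0.557% lower over all regions. The median level at day 5 in those DATG-chosen regions was 7.08 CPM in WT and 5.60 CPM in DATG, the line they were chosen in. In the KO-chosen regions it was 3.48 CPM in WT and 5.76 CPM in KO.

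Marker genes of the cell types the culture could hold were looked up through regions whose nearest protein-coding gene end lay within 50 kb. Of 9 mesoderm markers, 4 had late-opening regions (PDGFRA with 2 and EOMES, APLNR and HAND1 with 1 each). None of 9 amnion and trophoblast markers, of 4 pluripotency markers and of 2 neuroectoderm markers had one, and FOXA2 was the 1 of 2 endoderm markers that did. Summed over all regions linked to the mesoderm markers, WT went from 751 and 724 CPM at day 1 to 866 and 942 CPM at day 5. At day 5 KO stood at 753 and 785 CPM and DATG at 815 and 811 CPM. The mesoderm sums include the 5 late-opening regions, which were chosen by their WT values. The WT rise and the gap of KO and DATG to WT are thus partly built in, and how much was not tested. The same holds for single markers with a late-opening region. Single mesoderm markers differed in WT: APLNR went from 46.8 and 48.8 to 111 and 125 CPM and HAND1 from 166 and 160 to 222 and 251 CPM, while TBXT went from 59.7 and 57.7 to 49.4 and 56.0 CPM and EOMES from 170 and 160 to 156 and 158 CPM. Pluripotency markers summed to 299 and 287 CPM in WT at day 5, 376 and 375 CPM in KO and 330 and 377 CPM in DATG. Neuroectoderm markers summed to 267 and 269 CPM in WT, 384 and 400 CPM in KO and 321 and 337 CPM in DATG. Endoderm markers summed to 167 and 157 CPM in WT, 201 and 207 CPM in KO and 171 and 176 CPM in DATG, with no overlap between lines. Amnion and trophoblast markers summed to 979 and 1020 CPM in WT at day 5, 1060 and 1050 CPM in KO and 978 and 1040 CPM in DATG. KO thus lay above WT and DATG there. Single amnion and trophoblast markers moved both ways in WT from day 1 to day 5. VTCN1 went from 5.91 and 6.36 to 18.5 and 18.3 CPM, and GABRP from 42.5 and 39.3 to 24.2 and 26.4 CPM. At day 5 DATG overlapped KO for pluripotency and WT for amnion and trophoblast. The sums of all these classes differed between lines at day 5, and their part in the late-opening regions was not tested.

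Genes of 12 lists differed in how many of their linked regions opened late. Over all linked regions, 2.44% of 109083 did. The share was 7.84% for extracellular matrix and mesenchyme genes (21 of 268 regions), 7.14% for simple and junctional epithelium (17 of 238), 4.6% for endothelial and blood genes (8 of 174), 3.98% for endoderm (8 of 201) and 2.98% for lateral plate and cardiac mesoderm (16 of 537). It was 3.01% for the control list of ribosomal protein genes (4 of 133), 1.94% for primitive streak and nascent mesoderm (6 of 310), 1.74% for BMP-SMAD targets (7 of 403), 1.36% for AP-1 and immediate early genes (3 of 221) and 1.21% for amnion and trophoblast (5 of 414). Pluripotency and neuroectoderm genes had 0.866% and 0.461%, with 2 regions each. Over all 4549 late-opening regions 55.2% rose in KO, 79.9% rose in DATG and 32.1% were lower in KO than in WT at day 4, and the counts given for each list are to be read against these shares. These are descriptions without a test, and a link by distance does not show which gene a region acts on. Late-opening regions also lie in clusters, so regions of a list are not independent. Of the 4549, 1911 (42.0%) had another within 50 kb. The neighbouring genes KRT18 and KRT8 hold 6 each of the 17 epithelium regions, and COL1A1 and COL5A1 hold 5 and 4 of the 21 matrix regions.

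Cardiac and lateral plate regulators held 16 late-opening regions near 10 genes, of which 12 rose in KO, 13 rose in DATG and 6 were lower in KO than in WT at day 4 (55.2%, 79.9% and 32.1% over all late-opening regions). A region inside GATA6, which encodes a transcription factor of heart and endoderm (chromosome 18, 22194240 to 22194440, 8088 bp from the nearer gene end), read 3.0 and 2.9 CPM in WT at day 1, 13.8 and 10.3 CPM at day 4 and 17.2 and 19.4 CPM at day 5. KO read 1.53 and 1.82 CPM at day 1, 5.34 and 6.28 CPM at day 4 and 4.42 and 5.6 CPM at day 5. DATG read 3.07 and 2.6 CPM, then 6.19 and 8.14 CPM, then 13.5 and 8.71 CPM on those days. At day 5 KO lay below DATG without overlap. The day 5 rise was 1.05 ± 0.24 in KO (log2, SE, n = 2 libraries per day, edgeR adjusted p = 0.0011) and 1.93 ± 0.20 in DATG (adjusted p = 7.81e-13). At day 4 KO lay −1.09 ± 0.21 from WT (adjusted p = 0.000203), and at day 5 −1.24 ± 0.23 from DATG (adjusted p = 0.000778). The 4 changes kept their sign when any 1 library of the contrast was left out. The KO rise (0.89) lost its call without KO day 5 replicate b, the day 4 difference (−0.86) without WT day 4 replicate a, and the day 5 difference without KO replicate a (−1.09), without DATG replicate a (−0.79) and with DESeq2 (−1.20).

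HAND1, a transcription factor of heart and extraembryonic mesoderm, had a region 48099 bp outside the gene (chromosome 5, 154526326 to 154526526). WT read 0.562 and 0.781 CPM at day 1, 7.05 and 5.62 CPM at day 4 and 7.57 and 10.9 CPM at day 5, where KO read 2.65 and 3.26 CPM and DATG 4.41 and 4.23 CPM. KO was lower than WT at day 4 by −1.78 ± 0.30 on the log2 scale (adjusted p = 1.72e-05, edgeR), with 1.66 and 2.09 CPM. Near TBX20, a cardiac T-box factor gene, DATG reached 5.37 and 5.47 CPM at day 5 against 6.12 and 5.02 CPM in WT, and KO 2.9 and 3.26 CPM. There KO lay below DATG. Inside TBX5, which encodes another cardiac T-box factor, the rise was 1.15 ± 0.35 in DATG (adjusted p = 0.0172) and did not pass in KO (0.16 ± 0.41, adjusted p = 0.879), where the day 5 libraries read 1.01 and 1.43 CPM. The DATG rise at TBX5 also lost its call without DATG day 2 replicate b, without either day 5 library and with DESeq2.

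Of the primitive streak and nascent mesoderm genes, 5 held 6 late-opening regions, 2 of which rose in KO and 4 in DATG (55.2% and 79.9% over all late-opening regions). PDGFRA, a receptor of mesodermal and mesenchymal cells, had a region 31731 bp outside the gene (chromosome 4, 54197362 to 54197562) with 1 of the 5 largest day 4 differences between KO and WT among called late-opening regions that were linked to a gene, counting 1 region per gene. WT read 9.24 and 8.36 CPM at day 4, KO 2.25 and 1.4 CPM and DATG 4.4 and 3.99 CPM. KO lay −2.30 ± 0.28 from WT (log2, SE, n = 2, adjusted p = 3.01e-09) and DATG −1.12 ± 0.23 (adjusted p = 0.00594), where the DATG call was lost with DESeq2 and without WT day 4 replicate a (−1.05) or DATG day 4 replicate b (−0.996). By day 5 WT stood at 12.5 and 15.0 CPM, DATG at 9.51 and 7.71 CPM and KO at 2.65 and 4.56 CPM. At day 4 no line overlapped another, and at day 5 KO lay below DATG. The KO rise of 1.39 ± 0.29 from days 1 to 3 (adjusted p = 0.000241) was 0.96 and not called without KO day 5 replicate b.

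LHX1, a regulator of gastrulation, stood apart. Its region 16751 bp outside the gene (chromosome 17, 36919834 to 36920034) read 5.68 and 4.59 CPM in WT at day 5, KO read 2.27 and 2.87 CPM, and DATG 2.48 and 2.49 CPM. The change from days 1 to 3 was −0.05 ± 0.28 in KO and −0.23 ± 0.31 in DATG, and neither passed (adjusted p = 0.948 and 0.711). Both lines were already at 2.16 to 3.22 CPM on day 1, above the 2.06 and 1.67 CPM of WT. At APLNR, the apelin receptor gene, and EOMES, a T-box factor of the streak, WT reached 4.22 and 4.81 CPM and 4.95 and 4.37 CPM at day 5, and KO 1.26 and 0.912 CPM and 1.01 and 2.34 CPM. The KO rise did not pass at either (adjusted p = 0.375 and 0.107).

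Matrix and mesenchyme genes had 21 late-opening regions near 10 genes, of which 20 rose in DATG, 11 rose in KO and 8 were lower in KO than in WT at day 4 (79.9%, 55.2% and 32.1% over all late-opening regions). COL1A1 encodes a chain of type I collagen. A region 8773 bp outside it (chromosome 17, 50210404 to 50210604) read 7.03 and 6.92 CPM in WT at day 1 and 27.2 and 29.4 CPM at day 5. KO reached 11.5 and 13.7 CPM and DATG 17.5 and 14.9 CPM, and the 2 mutant lines did not overlap. The rise was 0.84 ± 0.16 in KO (adjusted p = 3.02e-05) and 1.45 ± 0.16 in DATG (adjusted p = 9.09e-12). Near COL5A1, which encodes a type V collagen chain (chromosome 9, 134602692 to 134602892, 38911 bp outside), WT read 16.6 and 20.0 CPM at day 5, DATG 12.3 and 9.95 CPM and KO 5.05 and 4.69 CPM. KO lay −1.24 ± 0.24 from DATG (adjusted p = 0.00152), a call lost without DATG day 5 replicate a (−1.02) and with DESeq2 (−1.22).

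FMOD, the gene of the collagen-binding protein fibromodulin, had a region 13385 bp outside it (chromosome 1, 203364507 to 203364707). WT read 13.0 and 7.85 CPM there at day 3 and 14.3 and 16.1 CPM at day 4, when KO read 4.51 and 3.95 CPM and DATG 9.45 and 8.29 CPM. The day 4 difference from WT was −1.88 ± 0.23 in KO (adjusted p = 2e-08) and −0.84 ± 0.20 in DATG (adjusted p = 0.0246). The DATG call was lost with DESeq2 (−0.82) and in 3 of the 4 fits that left out a library, those without WT replicate a or b or DATG replicate b. Near CDH11, a mesenchymal cadherin gene, KO read 1.89 and 3.65 CPM at day 5, DATG 6.06 and 4.48 CPM and WT 9.17 and 11.5 CPM. SPARC, a secreted matrix glycoprotein gene, had a region whose KO rise did not pass (0.35 ± 0.20, adjusted p = 0.295), with 5.3 and 7.81 CPM at day 5 against 4.9 and 6.47 CPM at day 1.

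Simple epithelium was represented mainly by keratin genes. Of 17 regions near 6 genes, 10 rose in KO, 11 in DATG, and 7 were lower in KO than in WT at day 4 (55.2%, 79.9% and 32.1% over all late-opening regions). KRT18 and KRT8, neighbouring genes for the paired keratins of simple epithelia, had 6 late-opening regions each. The strongest one linked to KRT18 (chromosome 12, 52925209 to 52925409, 23446 bp outside) read 2.91 and 3.01 CPM in WT at day 1 and 21.7 and 25.7 CPM at day 5, with 13.4 and 11.7 CPM at day 3 and 13.0 and 12.2 CPM at day 4. KO read 6.69 and 7.94 CPM at day 5 and DATG 15.3 and 14.7 CPM, with no overlap between them. KO lay −1.06 ± 0.19 from DATG at day 5 (log2, SE, n = 2, adjusted p = 0.000466), a call lost without DATG replicate a (−0.999). Near KRT19, a keratin gene of simple epithelia, the 2 KO libraries of day 5 differed, at 3.79 and 8.99 CPM. The KO rise there was 1.06 ± 0.23 (adjusted p = 0.000441) and 0.33 without KO day 5 replicate b, where it was not called. The region linked to CDH1, the E-cadherin gene, reached 4.73 CPM in WT at day 5 on average, and its rise did not pass in KO (0.28) or in DATG (0.35).

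Among BMP-SMAD targets, 6 genes held 7 regions, of which 4 rose in KO, 2 in DATG and 1 was lower in KO than in WT at day 4 (55.2%, 79.9% and 32.1% over all late-opening regions). That 1 is SMAD6 (−0.57, adjusted p = 0.0188), a call lost with DESeq2 and without WT day 4 replicate a (−0.48) or KO day 4 replicate b (−0.46). SMAD6 encodes an inhibitor that feeds back on BMP signalling. Its region 20406 bp outside the gene (chromosome 15, 66803255 to 66803455) read 10.3 and 11.2 CPM in WT at day 1, 25.5 and 22.5 CPM at day 4 and 35.2 and 33.4 CPM at day 5. KO read 18.2 and 21.2 CPM at day 5 and DATG 29.6 and 20.4 CPM, so the mutant lines overlapped each other. The rise was 1.02 ± 0.15 in KO (adjusted p = 5.1e-08) and 1.37 ± 0.14 in DATG (adjusted p = 1.7e-12). Near ID1, a helix-loop-helix inhibitor and a direct BMP target, KO rose by 0.70 ± 0.23 (adjusted p = 0.0318) and DATG by 1.02 ± 0.24 (adjusted p = 0.00114). The ID1 rise in KO lost its call in 5 of the 8 fits that left out a library and with DESeq2, and that in DATG without DATG day 5 replicate a (0.92). The region near SMAD7, an inhibitor of TGF-β and BMP signalling, rose by an amount that did not pass in KO (0.73 ± 0.30, adjusted p = 0.12) or in DATG (0.28 ± 0.35, adjusted p = 0.689).

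Endothelial and blood genes held 8 regions near 5 genes, and all 8 rose in DATG, 6 rose in KO and 4 were lower in KO than in WT at day 4 (79.9%, 55.2% and 32.1% over all late-opening regions). Near CDH5, the gene of vascular endothelial cadherin (chromosome 16, 66408688 to 66408888, 3904 bp outside), WT went from 1.22 and 2.23 CPM to 10.6 and 9.72 CPM, KO to 3.16 and 4.04 CPM and DATG to 7.58 and 4.73 CPM. The rise was 2.05 ± 0.34 in KO and 2.30 ± 0.29 in DATG (adjusted p = 3.15e-06 and 6.31e-10). Inside RUNX1, a regulator of blood formation, DATG rose by 1.08 ± 0.33 (adjusted p = 0.0197, lost with DESeq2 and without DATG day 1 replicate b or day 5 replicate a), and the KO change of 0.08 ± 0.39 did not pass. Of the endoderm list, 8 regions near 4 genes rose in both lines, 3 of them lower in KO than in WT at day 4 (55.2%, 79.9% and 32.1% over all late-opening regions for the KO rise, the DATG rise and the day 4 difference). GATA6 and GATA4 are on this list and on that of cardiac regulators. Near FOXA2, the endoderm factor gene, the rise was 2.14 ± 0.43 in KO and 2.52 ± 0.49 in DATG (2.23 and not called without DATG day 5 replicate a), from levels of 0.146 CPM or less at day 1 in DATG. Both regions near pluripotency genes failed the test in both lines, among them the one inside SALL4 (0.64 in KO and 0.36 in DATG).

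**Figure D5:**
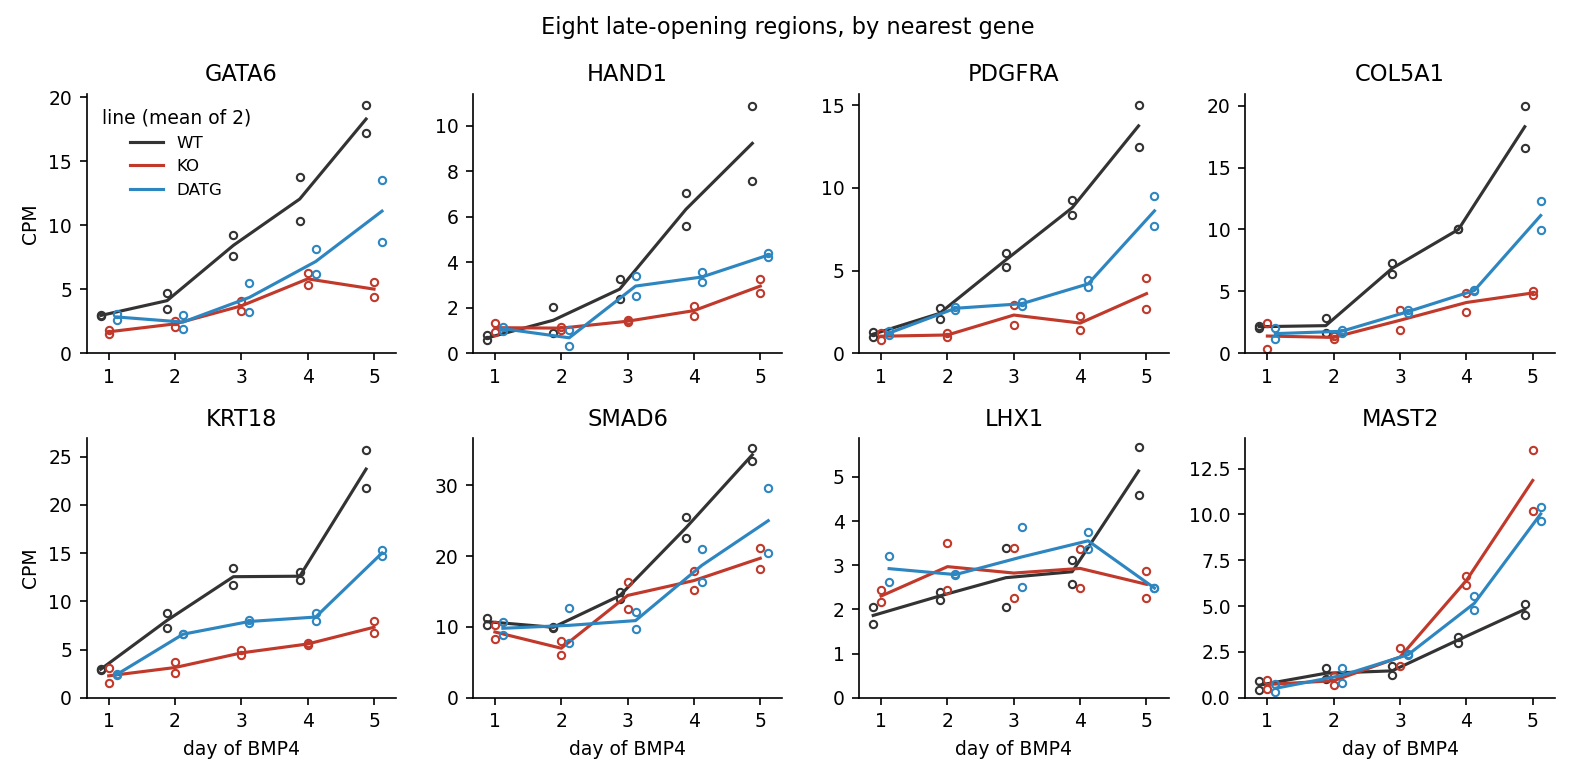
CPM by day of BMP4 at 8 late-opening regions, titled by the gene they are linked to. Circles are single libraries and lines join means of 2. WT is highest at day 5 at GATA6, HAND1, PDGFRA, COL5A1, KRT18, SMAD6 and LHX1, and lowest at MAST2.

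Among regions linked to a gene, counting 1 per gene, the 8 with the most WT signal at day 5 were ranked. They lay near TTC7A, SMAD6, BCAR1, ZNF608, COL1A1, NR1I2, SH3BP4 and BIN1, with mean levels of 27.6 to 41.1 CPM. All 8 rose in DATG, although TTC7A was not called there without DATG day 5 replicate a (0.49). In KO, 5 rose, of which BIN1 was not called without KO day 5 replicate a (0.58), and those inside TTC7A, BCAR1 and SH3BP4 did not pass (0.34, 0.26 and 0.33 on the log2 scale, adjusted p = 0.0701, 0.295 and 0.153). BCAR1, which encodes an adaptor of integrin signalling, read 32.5 and 33.4 CPM in WT at day 5, 23.1 and 20.6 CPM in DATG and 14.0 and 14.3 CPM in KO, where day 1 had been 16.2 and 12.1 CPM. SH3BP4, a regulator of receptor trafficking, read 28.4 and 27.4 CPM in WT, 22.2 and 18.7 CPM in DATG and 11.6 and 13.3 CPM in KO. Near ZNF608, a zinc-finger gene, KO was below DATG at day 5 by −0.93 ± 0.19 (adjusted p = 0.00454), with 8.33 and 8.6 CPM against 14.6 and 17.9 CPM, a call lost without KO replicate a (−0.92) and with DESeq2 (−0.94). The KO and DATG libraries of day 5 did not overlap at BCAR1, SH3BP4 or ZNF608.

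A few regions went against the rest. Of the 4 higher in KO than in WT at day 4, 2 lay within 50 kb of a protein-coding gene. One was 6373 bp outside MAST2, a kinase gene (chromosome 1, 45797039 to 45797239), where WT read 4.51 and 5.13 CPM at day 5, KO 13.5 and 10.2 CPM and DATG 9.65 and 10.4 CPM. At day 4 KO read 6.64 and 6.16 CPM against 2.98 and 3.34 CPM in WT, a difference of 0.98 ± 0.28 (log2, SE, n = 2, adjusted p = 0.0196). The rise to day 5 was 3.37 ± 0.23 in KO and 3.12 ± 0.25 in DATG. The other lay inside PBX4, a homeobox gene (chromosome 19, 19575455 to 19575655), with 8.9 and 8.14 CPM in KO and 4.7 and 5.17 CPM in WT at day 4 (0.75 ± 0.24, adjusted p = 0.0429). Both day 4 calls were lost when any 1 of the 4 libraries was left out, at 0.90 to 1.06 for MAST2 and 0.68 to 0.82 for PBX4, and with DESeq2. Day 4 levels of KO and WT did not overlap at either.

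Among called late-opening regions linked to a gene, the largest rise in KO was near SIPA1L2, 4.38 ± 0.57 on the log2 scale. It went from 0.0 to 0.932 CPM on days 1 to 3 to 1.52 and 3.91 CPM at day 5, under the 8.16 and 11.2 CPM of WT. In DATG the largest was inside ZNF282, a zinc-finger gene, 4.79 ± 0.57, from 0.0 to 1.08 CPM to 3.86 and 2.99 CPM. Both rises start from few reads, and their fitted size depends on how low counts are treated. CYP11A1, the enzyme gene that starts steroid synthesis, held 1 of the 5 regions with the widest gap between the mutant lines. This ranking is among called late-opening regions linked to a gene, counting 1 region per gene. KO read 0.631 and 1.17 CPM there at day 5, DATG 3.86 and 3.73 CPM and WT 5.39 and 4.91 CPM. KO lay −2.09 ± 0.45 from DATG (adjusted p = 0.00744), a call lost without KO replicate a (−1.72), without DATG replicate a (−2.03) and with DESeq2 (−2.09).

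Most of the late-opening regions had no counterpart in the other tables. The rule keeps regions that are low early relative to day 5, so a small overlap with day 0 is favoured by the choice. Of the 4549, 157 (3.45%) overlapped a region of the day 0 table by at least 1 base, against 67.8% of all BMP4 regions. Overlap with the SMADi table held for 1324 (29.1%) against 83.5%, and 70.7% overlapped neither table, against 13.5%. The 157 that were regions at day 0 had a higher start in WT, 4.55 CPM at day 1 against 1.21 CPM for the rest. In the 3225 without a SMADi counterpart the median day 4 difference of KO from WT was −0.99, and in the 1324 with one −0.57. The 2 sets also differed in WT at day 1, with medians of 1.01 and 2.26 CPM.

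WT cells under SMADi, which the labels call neuroectoderm, gave a test in other libraries. Only late-opening regions that were also SMADi regions could enter it. At SMADi day 1 their WT medians lay under the 4.33 and 4.35 CPM of all SMADi regions. Some may be SMADi regions because they are high later, so the count of rises may be partly built in. Of the 1321 late-opening regions with a tested counterpart in the SMADi table, 623 were higher and 242 lower at day 5 than at day 1, against 21.5% higher and 16.1% lower over all 161637 regions tested there. The median log2 change was 0.81. The median level went from 2.10 and 2.14 CPM at day 1 through 2.46 and 2.60 CPM at day 4 to 3.10 and 3.19 CPM at day 5, and the 2 days did not overlap. Scaling by library totals moved the median of all SMADi regions to −0.11, relative to which the late-opening regions stood at 0.83, with 607 higher and 262 lower. At the same regions the KO libraries read 2.61 and 2.36 CPM at day 1, 3.58 CPM at day 4 (1 library) and 3.30 and 3.49 CPM at day 5. DATG read 2.63 CPM at day 1 (1 library), 3.65 and 3.38 CPM at day 4 and 3.48 CPM at day 5 (1 library). Under SMADi the mutant medians thus lay above those of WT on each of these days, which was not tested.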

How the data were processed

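The files hold ATAC-seq counts in 201-bp regions, 1 table per treatment. The deposited values are whole-number counts that the authors did not normalize. GRCh38 and MACS2 are named in the submitters' processing notes. Aligner, peak settings, treatment of duplicates and read shifting are steps not given in the sources used here, and PCR duplicates that were counted would make the counts less independent. CPM is the count scaled to its library total. Tests used edgeR 4.0.16 in R 4.3.3 with TMM scaling, filterByExpr, robust quasi-likelihood fits and 1 mean per line and day over all 30 BMP4 libraries, or over the 6 WT libraries under SMADi. Adjustment was by Benjamini-Hochberg over all tested regions. The scripts were tested on simulated data. Alternatives were library totals, no filter, a replicate block, DESeq2 1.42.0, a fold of 2.5, TMM-scaled CPM in the rule and leaving out each library of the contrast. The WT BMP4 libraries of days 1, 2, 3 and 5, which chose the regions, were never left out. Regions were linked to the nearest protein-coding gene end within 50 kb. Named regions were taken among those linked to a gene. They were the 8 highest in WT at day 5, the extremes of 4 contrasts, and the highest one of each list gene, and not all are printed. The 4 contrasts were the KO rise, the DATG rise, KO against WT at day 4 and KO against DATG at day 5. The 1 region that fell in KO is not reported here. The regions, lists and tests were chosen with earlier results of these data known. Motifs were searched in gene-start windows, since no genome was used here.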

Additional observations from a re-analysis of the deposited data

How the results depend on the processing

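Directions over the set held in every fit except DATG at day 5 against WT at day 4, but counts of called regions depended on single libraries and on the tool. With DESeq2 the counts were 1589 for the KO rise, 2864 for the DATG rise, 348 for KO against WT at day 4 and 0 for DATG against WT at day 4. They were 1 for KO against DATG at day 5, 211 for KO day 5 against WT day 4, 5 for DATG day 5 against WT day 4 and 554 under SMADi. A fold of 2.5 in the rule left 1975 regions, and the counts were 1229 for the KO rise, 1709 for the DATG rise, 606 and 114 for KO and DATG against WT at day 4, 115 for KO against DATG, 296 and 27 for KO and DATG at day 5 against WT day 4, and 184 under SMADi. Those counts are out of a smaller set, and the share called moved both ways. It went from 55.2% to 62.2% for the KO rise and from 79.9% to 86.5% for the DATG rise. For KO against WT at day 4 it went from 32.1% to 30.7%, and for KO day 5 against WT day 4 from 19.5% to 15.0%. For DESeq2 the cause of the lower counts was not tested.

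Leaving out 1 library gave 1110 to 2450 regions for the KO rise, 1501 to 3562 for the DATG rise, 383 to 1166 for KO against WT at day 4, 3 to 199 for DATG against WT at day 4, 13 to 336 for KO against DATG, 240 to 847 for KO day 5 against WT day 4, 16 to 50 for DATG day 5 against WT day 4 (median −0.09 to 0.25) and 534 to 622 under SMADi. Library totals, no filter and TMM-scaled CPM in the rule (5214 regions) kept every count within 1.5 times. Among named regions, 167 called values had 1788 alternatives, of which 1531 kept their call, 257 lost it and 0 changed sign. The 10 named values called for DATG against WT at day 4 all lost their call with DESeq2.

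Replicate letters are shared between groups, and the labels do not say that they pair samples. Over 105 pairs of groups the correlation of same-letter deviations ran from −0.128 to 0.184, with a median of 0.0254. With the replicate block the counts were 2535, 3623, 1493, 285, 251, 910, 73 and 608, in the order of the leave-out ranges, all within 1.5 times. Reads per region were few: the median late-opening region held 14 reads in DATG day 5 replicate b and 17 in KO day 5 replicate a.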
